A study of Mus musculus with 3 samples.

Results

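Receptors for sphingosine 1-phosphate (S1P) and the genes that set how strongly leukocytes respond to it were measured in circulating blood cells of untreated mice. The 5 genes described are S1pr1, S1pr4 and S1pr5, which encode S1P receptors, Klf2, which encodes a transcription factor, and Cd69, which encodes a membrane protein of activated lymphocytes. They were chosen by gene symbol and are 5 of the 19059 genes in the count matrices. Peripheral blood leukocytes of male mice, with no genotype other than the sex given and all untreated, were freed of erythrocytes, stained with the nucleic acid dyes DAPI and Draq5, sorted, fixed and profiled with a probe-based single-cell RNA kit in 3 libraries. Replicates 1, 2 and 3 came from mice of 8, 9 and 10 weeks of age, all processed in 2023. Age and library cannot be told apart with 1 library per age, and the labels do not say how many animals each library holds, so the spread given below is the spread between these libraries.

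S1P is a lipid that is kept abundant in blood and lymph and scarce inside lymphoid tissue. Lymphocytes leave tissue by following this gradient through S1PR1, a receptor coupled to the inhibitory G protein. KLF2 drives S1pr1 transcription and keeps lymphocytes in a quiescent, circulating state, and the CD69 protein binds S1PR1 and removes it from the cell surface, which holds activated cells in the tissue. S1PR5 is known for the exit of NK cells and Ly6c-low patrolling monocytes from bone marrow and is under the control of the transcription factors T-bet (Tbx21) and Zeb2, and S1PR4 is found broadly on haematopoietic cells. All values here are RNA. Surface protein, where CD69 acts on S1PR1, was not measured.

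The 3 libraries held 45718031, 19591648 and 23443660 unique molecular identifiers (UMIs, each a counted RNA molecule) over 11105, 5736 and 7029 barcodes, with medians of 3539, 3138 and 3086 UMIs per barcode. After removal of barcodes with fewer than 200 genes and of predicted doublets, 21767 cells remained. Cells were assigned by raw UMI counts of marker genes, and none of the 5 genes took part. This gave 9047 B cells, 2180 CD4 T cells, 2581 CD8 T cells, 61 gamma-delta T cells, 855 NK cells, 2530 neutrophils, 479 Ly6c-high-type and 574 Ly6c-low-type monocytes, 262 platelets, 41 erythroid barcodes, 21 dendritic cells and 14 basophils, and left 3122 cells in no class. The labels name leukocytes, and markers of each of these lineages were present, platelets and erythroid barcodes included. The libraries shared 232 barcode sequences between them. Levels are UMIs of the gene scaled to 1000000 UMIs (CPM) of the summed counts of a class in a library, and ± is the SD over 3 libraries. Probe efficiency differs between genes, so levels are compared between cell classes and not between genes.

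S1pr1 lies on chromosome 3 (115710433 to 115715072, minus strand), S1pr4 on chromosome 10 (81497747 to 81500132, minus strand), S1pr5 on chromosome 9 (21242912 to 21248443, minus strand), Klf2 on chromosome 8 (72319033 to 72321656, plus strand) and Cd69 on chromosome 6 (129267325 to 129275436, minus strand) of mouse build GRCm38. All are protein-coding genes. Promoter windows from 250 bases before to 50 bases after the start were matched in RefSeq (GRCm38.p6) for 3 of the 5 genes, S1pr4, S1pr5 and Klf2. The windows of S1pr5 and Klf2 are shown because S1pr5 was found in few cell types and Klf2 encodes the transcription factor among the 5. Capitals mark the letters CACCC, the core of the motif bound by KLF proteins, or GGGTG, its reverse complement. The S1pr5 window is chr9:21248394-21248693 on the minus strand and the Klf2 window is chr8:72318812-72319111 on the plus strand, both printed 5′ to 3′ in the direction of transcription.
S1pr5: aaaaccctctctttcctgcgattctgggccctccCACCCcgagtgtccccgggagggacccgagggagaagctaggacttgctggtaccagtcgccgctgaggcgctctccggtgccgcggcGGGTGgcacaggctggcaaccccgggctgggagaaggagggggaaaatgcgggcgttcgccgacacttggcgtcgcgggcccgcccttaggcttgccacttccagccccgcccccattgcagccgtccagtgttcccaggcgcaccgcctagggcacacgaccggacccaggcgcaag
Klf2: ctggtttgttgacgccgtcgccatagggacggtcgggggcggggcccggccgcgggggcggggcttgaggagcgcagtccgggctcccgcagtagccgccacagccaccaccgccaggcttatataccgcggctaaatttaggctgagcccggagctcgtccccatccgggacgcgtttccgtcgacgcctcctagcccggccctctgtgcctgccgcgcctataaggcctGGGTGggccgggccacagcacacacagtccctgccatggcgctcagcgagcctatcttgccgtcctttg
CACCC or GGGTG occurred at 2 places in the S1pr5 window, 1 place in the Klf2 window and 1 place in that of S1pr4, and at least once in 57.5% of the 32851 RefSeq promoter windows of this length. The letters GGTGTG or CACACC, a core of T-box factor motifs that can run into GGGTG, occurred in 19.0% of all windows and in none of the 3. These matches are a description of the letters and do not mark a binding site.

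**Figure D1:**
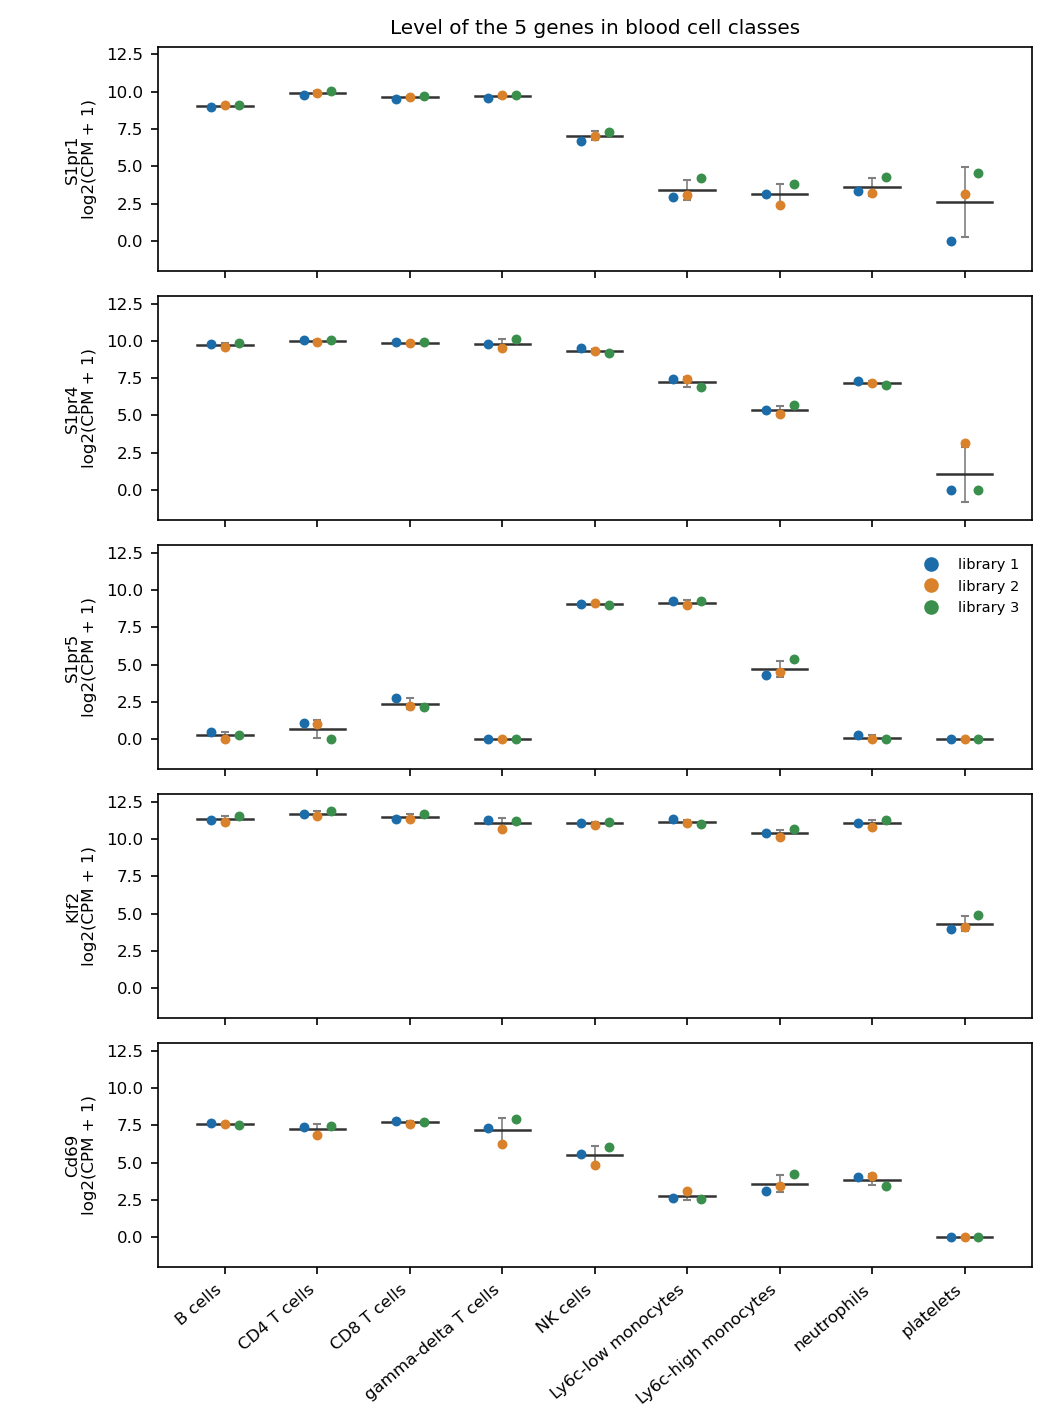
Levels of the 5 genes across 9 blood cell classes on a log2(CPM + 1) axis, 1 point per library with the mean of the log2 values as a line and their SD as a bar. S1pr1 was highest in T and B cells and S1pr5 in NK cells and Ly6c-low-type monocytes, and Klf2 was lowest in platelets.

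S1pr1 separated lymphocytes of the adaptive lineages from all other blood cells. In CD4 T cells its level was 880, 980.5 and 1043 CPM in replicates 1, 2 and 3 (968 ± 82.2). It was 764, 872 and 867 CPM in gamma-delta T cells (834 ± 61.1), 730, 789 and 843 CPM in CD8 T cells (787 ± 56.3) and 513, 543.4 and 545.6 CPM in B cells (534 ± 18.2). The CD4 values lay above those of gamma-delta cells, gamma-delta and CD8 cells overlapped, and B cells lay below all T cells in all 3 libraries. NK cells followed at 105, 132 and 160.5 CPM (133 ± 27.7). Neutrophils (12.0 ± 5.62 CPM), Ly6c-low-type monocytes (10.6 ± 5.92), platelets (10.4 ± 11.7) and Ly6c-high-type monocytes (8.52 ± 4.45) overlapped one another. No S1pr1 UMI was found in the 21 dendritic cells, and 14 basophils gave 125 ± 110 CPM from 8 UMIs. A UMI of S1pr1 was seen in 92.3% ± 0.85 of CD4 T cells, 92.0% ± 0.74 of CD8 T cells, 76.1% ± 0.95 of B cells and 27.7% ± 3.13 of NK cells. In neutrophils, the class set beside these as a gauge of low-level UMIs, it was 2.75% ± 0.73, at median depths of 2658 to 2821 UMIs against 3256 to 3587 in CD4 T cells. With every cell thinned to 2000 UMIs, which left out 91 CD4 T cells and 231 neutrophils, the shares in CD4, CD8, B and NK cells and neutrophils were 82.1%, 78.1%, 63.2%, 18.6% and 1.78%.

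S1pr4 was spread more broadly than S1pr1, with all lymphocytes high and monocytes and neutrophils lower. CD4 T cells had 1054, 978 and 1070 CPM (1034 ± 49.1), CD8 T cells 966, 911 and 950 CPM (942 ± 28.4), B cells 886, 771 and 923.5 CPM (860 ± 79.3) and NK cells 717.5, 624 and 583 CPM (641 ± 69.2). The CD4 values lay above the CD8 values, gamma-delta T cells (904 ± 187) overlapped CD4 T, CD8 T and B cells, and NK cells lay below all of these. Among myeloid cells, Ly6c-low-type monocytes had 173, 174 and 117 CPM (155 ± 32.8), neutrophils 157, 141 and 131 CPM (143 ± 13.4) and Ly6c-high-type monocytes 39.6, 33.7 and 49.9 CPM (41.1 ± 8.20). The first 2 of these overlapped each other, and the third lay below both. The 14 basophils gave 553 ± 298 CPM, which overlapped NK cells, and the 21 dendritic cells 191 ± 33.7 CPM. The share of cells with a UMI was 94.5% ± 1.7 in CD8 T, 93.0% ± 1.1 in CD4 T, 87.2% ± 2.8 in B and 82.4% ± 3.8 in NK cells. It was 41.1% ± 7.6 in Ly6c-low-type monocytes, 25.8% ± 2.8 in neutrophils and 22.0% ± 3.4 in the much deeper Ly6c-high-type monocytes (median 7942 to 9239 UMIs). Platelets, which gave 1 S1pr4 UMI in 262 barcodes at a median of 896 to 1366.5 UMIs, had a share of 0.344% ± 0.60.

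S1pr5 was concentrated in a pair of classes from different lineages. Ly6c-low-type monocytes had 606.5, 499 and 606.5 CPM (571 ± 62.0) and NK cells 540.5, 565 and 499 CPM (535 ± 33.4), which overlapped. Of the 3957 S1pr5 UMIs in all cells, 1632 (41.2%) fell in Ly6c-low-type monocytes and 1627 (41.1%) in NK cells, and 532 lay in cells of no class. Ly6c-high-type monocytes had 18.8, 21.7 and 39.6 CPM (26.7 ± 11.3) and CD8 T cells 5.90, 3.72 and 3.36 CPM (4.33 ± 1.37). B cells held 7 UMIs in 9047 cells, CD4 T cells 7 UMIs in 2180 cells and neutrophils 1 UMI in 2530 cells. None was found in gamma-delta T cells, platelets, erythroid barcodes, dendritic cells or basophils. A count of 0 allows a share of up to 4.92% of the 61 gamma-delta cells and 1.15% of the 262 platelets with a UMI. From pooled counts, the level in NK cells was 2354 times that in B cells (95% counting interval 1140 to 5864), at least 43.4 times that in gamma-delta T cells and at least 66.1 times that in platelets, the last 2 against a floor of 3 counts over the group. A UMI was seen in 86.9% ± 3.36 of Ly6c-low-type monocytes and 76.0% ± 4.62 of NK cells, against 0.0632% ± 0.07 of B cells (median 3068 to 3222 UMIs, beside 3355 to 3557 in NK cells). Thinned to 2000 UMIs the shares in Ly6c-low-type monocytes, NK cells and Ly6c-high-type monocytes were 69.7%, 63.5% and 4.27%.

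Klf2 was detected in nearly every leukocyte. CD4 T cells had 3236, 2923 and 3788 CPM (3315 ± 438), CD8 T cells 2614, 2565 and 3340 CPM (2840 ± 434) and B cells 2520, 2213 and 2950 CPM (2561 ± 370). Ly6c-low-type monocytes (2565, 2136 and 2011 CPM), neutrophils (2188, 1808 and 2509 CPM), gamma-delta T cells (2161 ± 469) and NK cells (2109, 2003 and 2212 CPM) followed, and each of these 7 classes overlapped the next in that order. Ly6c-high-type monocytes lay below all 7 at 1328, 1125 and 1598 CPM (1350 ± 237). Platelets (19.8 ± 7.81), basophils (195 ± 210) and dendritic cells (476 ± 419) were lower, the last 2 from 14 and 21 cells. A Klf2 UMI was found in 95% ± 1.5 of neutrophils and in 96.6% to 98.9% of the cells of each T, B, NK and monocyte class on average, against 2.61% ± 0.54 of platelets and 13.3% ± 17.7 of the 41 erythroid barcodes. Over the 7 classes with at least 20 cells per library other than platelets, Klf2 was lowest in replicate 2 in 6 of 7 and highest in replicate 3 in 6 of 7, and S1pr1 was highest in replicate 3 in 7 of 7. The tests below compare classes within libraries.

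Cd69 RNA followed the lymphocytes. CD8 T cells had 218, 192 and 214 CPM (208 ± 14.1), B cells 206, 189 and 183 CPM (193 ± 11.8), gamma-delta T cells 160 ± 86.0 CPM and CD4 T cells 169, 117 and 176.5 CPM (154 ± 32.2), and each overlapped the next. NK cells lay below the CD4, CD8 and B values at 47.2, 27.3 and 66.3 CPM (46.9 ± 19.5). Neutrophils (13.9 ± 3.37), Ly6c-high-type (11.7 ± 5.26) and Ly6c-low-type monocytes (5.95 ± 1.41) were lower still, and platelets had none. A UMI was found in 40.1% ± 2.7 of CD8 T, 33.4% ± 1.4 of B, 28.4% ± 5.5 of CD4 T and 10.8% ± 3.0 of NK cells. The share was 6.43% ± 1.4 in the deeper Ly6c-high-type monocytes and 2.56% ± 0.72 in neutrophils. At 2000 UMIs per cell the order CD8 T (26.9%), B (25.4%), CD4 T (21.5%), NK (7.77%) and Ly6c-high-type monocytes (2.02%) was kept.

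T cells were compared with B cells first, as the mean of CD4 and CD8 T cells on the log2 scale. In this and the following comparisons summed counts were tested with edgeR over all genes, with the library as a block and Benjamini-Hochberg adjusted p-values over all genes, and a gene was called at an adjusted p under 0.05. All 5 genes passed the filter on low counts in the fit of cell classes. The later fits of subsets and of Cd69-positive cells were filtered over all their groups together, NK cells included, and kept S1pr5. Within B cells and within CD4 T cells, with 7 UMIs in each class, S1pr5 could hardly be called. S1pr1 was higher in T cells by 0.57 on the log2 scale (SE 0.07, adjusted p = 4.82e-11, higher in 3 of 3 libraries). S1pr5 was higher by 2.85 (SE 0.58, adjusted p = 1.77e-05) from 64 UMIs against 7. CD8 T cells held 57 of the 64, and CD4 T cells (0.711 CPM) overlapped B cells (0.209 CPM). S1pr5 passed the filter and was called in a fit of T and B cells alone too (2.69). Without replicate 1 the call was lost (2.55, adjusted p = 0.0702). Klf2 (0.12, adjusted p = 0.180) and S1pr4 (0.06, adjusted p = 0.472) were not called. Cd69 was lower in T cells by a fitted −0.23 (adjusted p = 0.00722), but its call was lost with plain library totals (−0.09, adjusted p = 0.150), where Klf2 (0.26, adjusted p = 0.000395) and S1pr4 (0.20, adjusted p = 0.00546) became higher in T cells. Leaving out replicate 2 (−0.14, adjusted p = 0.187) and DESeq2 (−0.19, adjusted p = 0.207) lost the Cd69 call too. With plain totals the median of all genes moved from −0.04 to 0.10 and the share of called genes that were higher moved from 47.8% to 60.6%. So 3 of the 5 genes were called, where 63.2% of all 10270 genes were called, 30.2% higher and 33.0% lower.

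Around the receptors, the list of genes that make, break down or export S1P had 1 of 9 higher and 5 lower in T cells (median −0.68, all genes −0.04). Spns2, which exports S1P from cells, was at 0.597 ± 0.340 CPM in T cells and 123 ± 8.26 in B cells (log2 −8.14, edgeR adjusted p = 2.07e-52), and Plpp3, a lipid phosphatase, at 0.291 ± 0.281 and 15.5 ± 0.724. Of 15 other S1P receptors and signalling genes 7 were higher and 6 lower (median 0.06), with Rgs2 and Gna12 among the lower. Rgs1, a brake on G protein signalling, was at 10.8 ± 1.77 CPM in T and 0.169 ± 0.113 in B cells, and Arrb2, an arrestin, at 395 ± 6.79 and 108 ± 4.12. Of 18 regulators of Klf2 or S1pr5 and trafficking genes 8 were higher and 8 lower, with Eomes and Tbx21 among the higher and Mef2c and Zeb2 among the lower. These lists were chosen with earlier results of these data known.

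NK cells stood apart from CD8 T cells in all 5 genes, against 49.0% of all genes called (23.5% higher and 25.5% lower). S1pr5 was higher by 6.80 on the log2 scale (SE 0.17, edgeR adjusted p = 2.33e-45). S1pr1 was lower by a log2 difference of −2.57 (SE 0.12, adjusted p = 2.48e-33), Cd69 by −2.13 (SE 0.15, adjusted p = 4.72e-21) and S1pr4 by −0.44 (SE 0.09, adjusted p = 4.46e-05), each in 3 of 3 libraries with no overlap of the values given above. Klf2 differed by −0.33 (adjusted p = 0.00359), but this call was lost without the library block (adjusted p = 0.0615) and without replicate 3 (−0.24, adjusted p = 0.0931). The pooled level of S1pr5 was 105 times that in CD8 T cells (80.3 to 139).

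The transcription factors tied to S1pr5 moved the same way between NK and CD8 T cells. Zeb2 was at 802 ± 153 CPM in NK and 13.4 ± 0.379 in CD8 T cells (log2 6.0, edgeR adjusted p = 4.62e-53), and Tbx21 at 1062 ± 94.6 and 65.5 ± 10.3. Foxo1, which drives Klf2 in T cells, was lower in NK cells (137 ± 4.09 against 392 ± 13.2 CPM), and in all 6 of 18 genes of the regulator and trafficking list were higher and 7 lower (median −0.27, all genes −0.03). Among other receptors and signalling genes 8 of 15 were higher and 2 lower, the lower being Arrb1 and Arhgef1. S1pr2, a receptor that restrains migration, was at 37.1 ± 11.8 CPM in NK and 6.79 ± 1.14 in CD8 T cells, and Rgs2 at 64.4 ± 14.2 and 14.5 ± 1.73. In the S1P metabolism list 3 of 9 were higher and 3 lower, and Plpp2, a lipid phosphatase, was at 36.6 ± 11.8 and 0.767 ± 0.665 CPM.

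**Figure D2:**
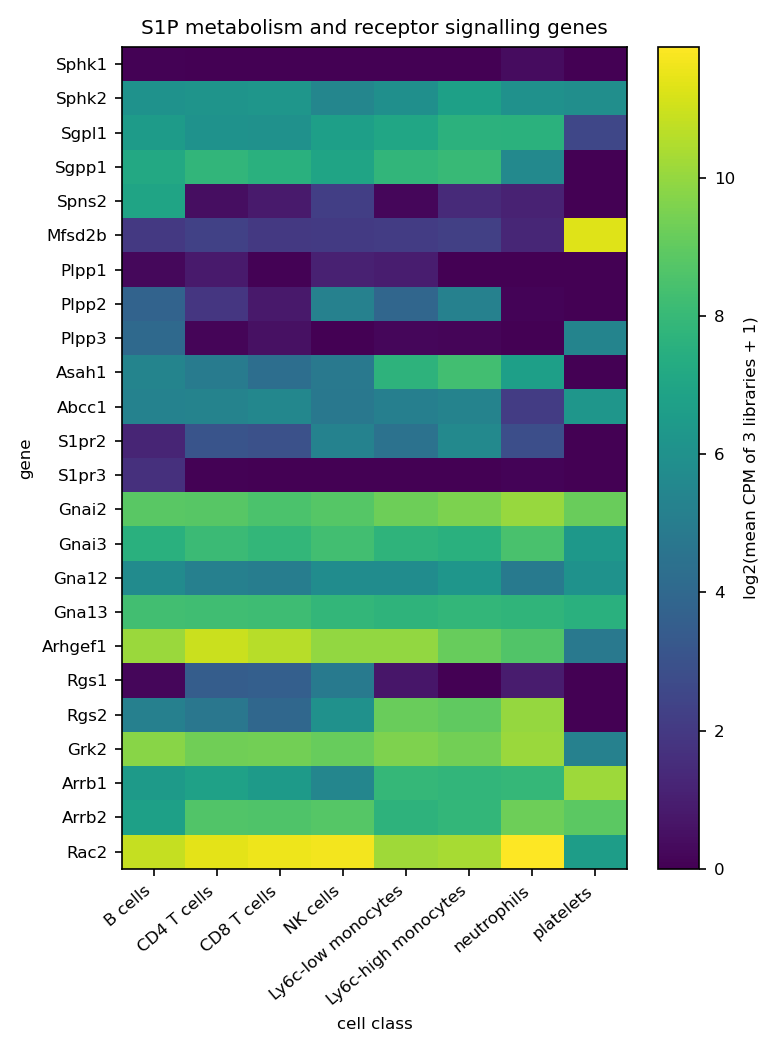
Mean level over 3 libraries, as log2(mean CPM + 1), of 24 genes of S1P metabolism, other S1P receptors and receptor signalling in 8 blood cell classes. Colours compare classes within a row only, and the row of Spns2 is brightest in B cells (123 CPM), that of Mfsd2b in platelets (2502 CPM) and that of Rgs1, among these 8 classes, in NK cells (28.7 CPM).

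S1pr5, S1pr4 and Klf2 were all higher in Ly6c-low-type than in Ly6c-high-type monocytes. In Ly6c-low-type against Ly6c-high-type monocytes S1pr5 was higher by 4.67 (SE 0.16, edgeR adjusted p = 7.92e-37), S1pr4 by 2.02 (SE 0.17, adjusted p = 3.81e-18) and Klf2 by 0.79 (SE 0.10, adjusted p = 5.97e-10), each in 3 of 3 libraries without overlap. S1pr1 (0.13, SE 0.42, adjusted p = 0.878) and Cd69 (−0.84, SE 0.45, adjusted p = 0.148) were low in both and were not called. Thus 3 of 5 genes were higher, where 17.1% of all genes were higher, 18.9% lower and 36.0% called either way. The pooled S1pr5 level was 26.0 times as high (21.1 to 32.4).

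Of the 18 regulators and trafficking genes, 6 were higher and 3 lower in Ly6c-low-type monocytes (median 0.10, all genes −0.0031). Cxcr4, the chemokine receptor that retains cells in bone marrow, was at 413 ± 46.1 against 123 ± 14.5 CPM. Signalling genes had 5 of 15 higher and 4 lower, with Arhgef1, an exchange factor downstream of S1P receptors, higher by 0.86 and S1pr2 lower (21.1 ± 2.42 against 48.0 ± 3.59 CPM), a call lost without replicate 1. In the S1P metabolism list 4 of 9 were lower, Plpp2 and Sphk2 among them.

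Monocytes, as the mean of both types on the log2 scale, differed from neutrophils in all 5 genes, where 74.0% of all genes were called, 39.7% higher and 34.3% lower. S1pr5 was higher by a fitted 8.64 against a single neutrophil UMI, with a pooled level in Ly6c-low-type monocytes 4234 times that in neutrophils (759 to 167343). The other values depended on the scaling. With edgeR's TMM factors S1pr4 differed by −1.71 (adjusted p = 1.01e-23), Klf2 by −1.12 (adjusted p = 3.27e-21), Cd69 by −1.83 (adjusted p = 6.31e-09) and S1pr1 by −1.22 (adjusted p = 5.27e-05). With plain library totals they were −0.87, −0.31, −0.99 and −0.38, and S1pr1 was no longer called (adjusted p = 0.190). In CPM the monocyte types differed. Ly6c-low-type monocytes overlapped neutrophils for S1pr4 (155 against 143) and Klf2 (2237 against 2168), and Ly6c-high-type monocytes lay below (41.1 and 1350). For Cd69 Ly6c-low-type monocytes lay below neutrophils (5.95 against 13.9) and Ly6c-high-type monocytes (11.7) overlapped them. For S1pr1 both types overlapped neutrophils. Neither type alone was tested against neutrophils. The median of all genes was 0.09 with TMM, 0.92 with plain totals and 0.44 with DESeq2, and the share of called genes that were higher was 53.6%, 78.6% and 65.0%. T cell markers were lower in monocytes in 5 of 5 (median −2.39), with summed levels of 33.5 to 44.7 CPM in neutrophils, 5.87 to 22.4 in Ly6c-high-type and 7.24 to 15.1 in Ly6c-low-type monocytes, and their part in the low S1pr1 and Cd69 values was not tested.

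**Figure D3:**
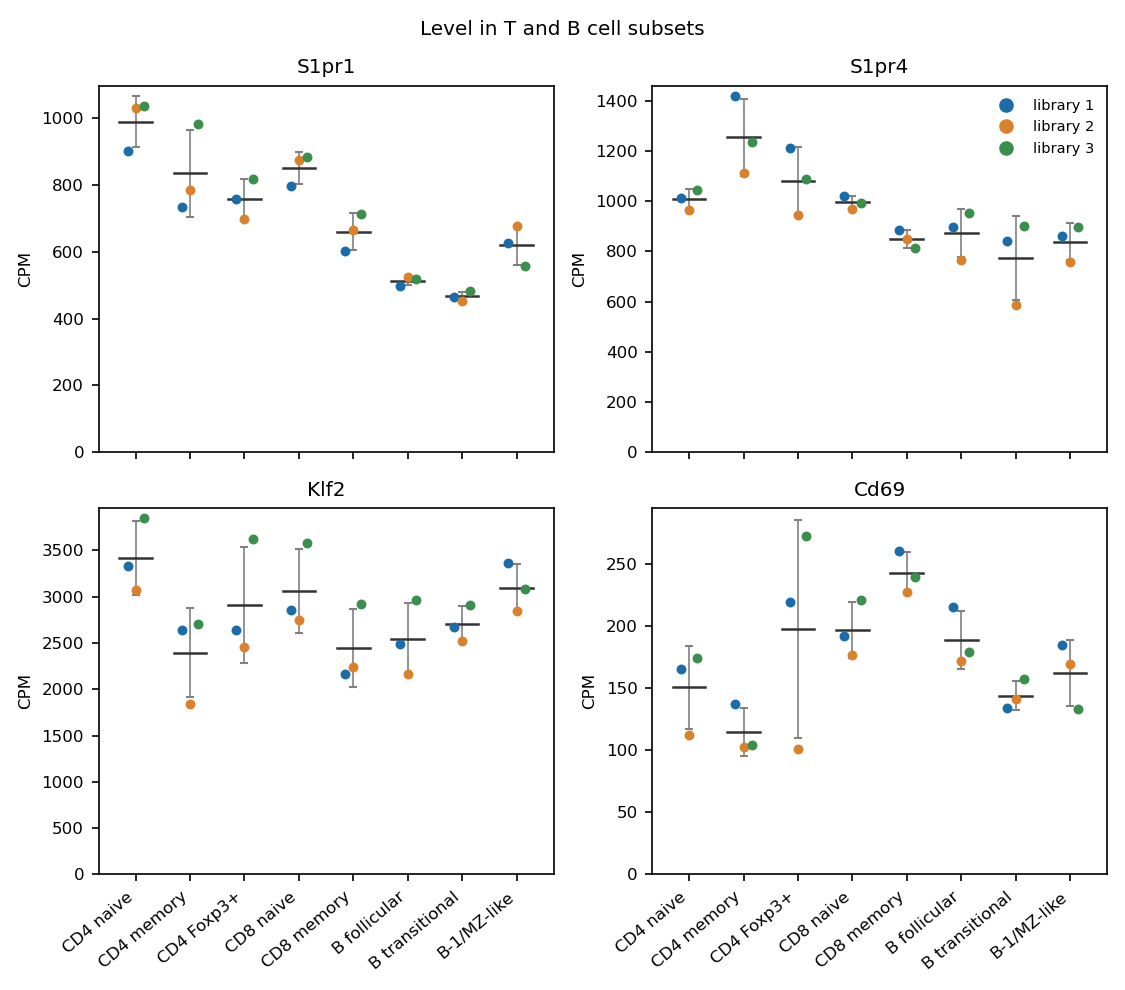
CPM of S1pr1, S1pr4, Klf2 and Cd69 in 8 T and B cell subsets, 1 point per library with the mean as a line and the SD as a bar. Memory-type T cells lie below naive-type T cells for Klf2 on average, and memory-type CD4 T cells lie above naive-type CD4 T cells for S1pr4.

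Within CD8 T cells, 665 memory-type cells were set against 1605 naive-type cells. Klf2 was at 2162, 2241 and 2926 CPM in memory-type and 2860, 2747 and 3580 CPM in naive-type cells, lower within each library though the ranges overlapped. S1pr1 was at 602, 666 and 713 CPM against 797, 874 and 883 CPM, and Cd69 at 261, 227 and 240 CPM against 192, 177 and 221 CPM, neither with overlap. In edgeR S1pr1 differed by −0.35 (SE 0.08, adjusted p = 0.00101), Cd69 by 0.38 (SE 0.09, adjusted p = 0.000435) and Klf2 by −0.30 (SE 0.09, adjusted p = 0.00845). Each of these was lost without replicate 1 (adjusted p = 0.0777, 0.363 and 0.162). Klf2 was also lost without replicate 2 (−0.32, adjusted p = 0.0712) and without the block (adjusted p = 0.143), and Cd69 with DESeq2 (adjusted p = 0.121). S1pr4 (849 ± 34.2 against 995 ± 26.2 CPM) was not called (−0.20, adjusted p = 0.138). It was called with subsets of at least 20 cells per library, the planned minimum (adjusted p = 0.047). It was also called in a fit of these 2 subsets alone (adjusted p = 0.0019). So 4 of 5 genes were called, S1pr5 included, where 17.1% of all 8760 genes were, 9.58% higher and 7.51% lower.

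S1pr5 in CD8 T cells sat almost wholly in the memory-type cells. It was at 17.1, 11.2 and 13.3 CPM there (13.9 ± 3.02) and at 0.694, 0 and 0 CPM in naive-type cells (log2 4.74, edgeR adjusted p = 5.17e-13), or 54 against 3 UMIs, a pooled ratio of 32.9 (10.7 to 164). Within memory-type cells, the 109 with no Ccr7 UMI had 75.9, 49.6 and 99.2 CPM (74.9 ± 24.8) and the 556 with one had 7.16, 2.29 and 2.50 CPM (3.98 ± 2.75), a pooled ratio of 12.6 (6.91 to 23.8). CCR7 guides cells to lymph nodes and is lost on effector-type memory cells. Markers of NK cells were higher in 2 of 5 in memory-type cells (median 1.81). Their summed level was 16.8 to 37.7 CPM there, 22.5 to 59.5 CPM in the cells without Ccr7 and 11.5 to 35.0 CPM in those with it, against 6509 to 7191 CPM in NK cells, and their part in the S1pr5 signal was not tested.

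The regulator and trafficking list had 5 of 18 genes higher and 5 lower in memory-type CD8 T cells (median −0.11, all genes −0.0016). Ccr7, among the lower, is a marker of the naive-type gate, so its direction was set by the gate. Tbx21 was at 192 ± 3.22 against 4.77 ± 1.88 CPM (log2 5.50, edgeR adjusted p = 3.17e-34) and Zeb2 at 38.1 ± 7.36 against 3.23 ± 1.30 CPM. Both were also higher in NK than in CD8 T cells, as given above. Of 15 signalling genes 2 were higher, Rgs1 at 21.1 ± 3.07 against 5.08 ± 2.73 CPM and S1pr2 at 10.9 ± 1.48 against 5.53 ± 1.56 CPM, the second a call that several alternatives lost. Cd44, a surface marker of memory cells, was at 235 ± 9.02 against 26.4 ± 6.72 CPM, and of the 15 activation genes tested it was the 1 that was higher while 4 were lower.

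Within CD4 T cells, 117 memory-type cells (84, 12 and 21 in replicates 1, 2 and 3) were compared with 1873 naive-type cells. Klf2 was at 2636, 1845 and 2710 CPM in memory-type and 3417 ± 401 CPM in naive-type cells, with no overlap (−0.48, SE 0.10, edgeR adjusted p = 0.00011, lower in 3 of 3 libraries). S1pr4 was at 1417, 1110 and 1236 CPM in memory-type and 1014, 965.5 and 1043 CPM in naive-type cells (0.35, SE 0.11, adjusted p = 0.0178). This S1pr4 call was lost without replicate 1 (0.20, adjusted p = 0.669), without the filter (adjusted p = 0.0702), without the block (adjusted p = 0.110) and in a fit of these subsets alone (adjusted p = 0.116). S1pr1 (834 ± 131 against 989 ± 75.8 CPM, −0.29, adjusted p = 0.0728) and Cd69 (115 ± 19.5 against 151 ± 33.3 CPM, −0.32, adjusted p = 0.361) were not called. The 2 called genes stand beside 14.6% of all genes called, 8.60% higher and 6.04% lower. In the regulator and trafficking list 3 of 18 genes were higher and 6 lower (median −0.49, all genes −0.03), the 6 again including the gate marker Ccr7.

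The 128 Foxp3-positive cells, the regulatory type, were set against the mean of naive-type and memory-type CD4 T cells. Foxp3-positive cells numbered 93, 22 and 13 in replicates 1, 2 and 3. In this comparison 5.99% of all genes were called, 4.24% higher and 1.76% lower. None of the 5 genes was called by edgeR, where Cd69 alone had an unadjusted p under 0.05 (0.00758), or by DESeq2, which gave S1pr5 no adjusted p. Cd69 was at 220, 101 and 272 CPM against 151, 107.5 and 139 CPM (0.53, SE 0.19, adjusted p = 0.0995), S1pr1 at 756, 697 and 817 CPM against 818, 907 and 1010 CPM (−0.21, adjusted p = 0.359), and Klf2 and S1pr4 both gave −0.04. No S1pr5 UMI was found in the 128 cells, which allows a share of up to 2.34% of cells with a UMI. With 7 UMIs in all CD4 T cells, S1pr5 could hardly be called in this comparison. In the signalling list Rgs1 was higher in Foxp3-positive cells (106 ± 38.6 against 11.5 ± 5.44 CPM, 3.51, adjusted p = 2.76e-10), and Il2ra, the interleukin-2 receptor chain of these cells, was higher by 5.61.

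**Figure D4:**
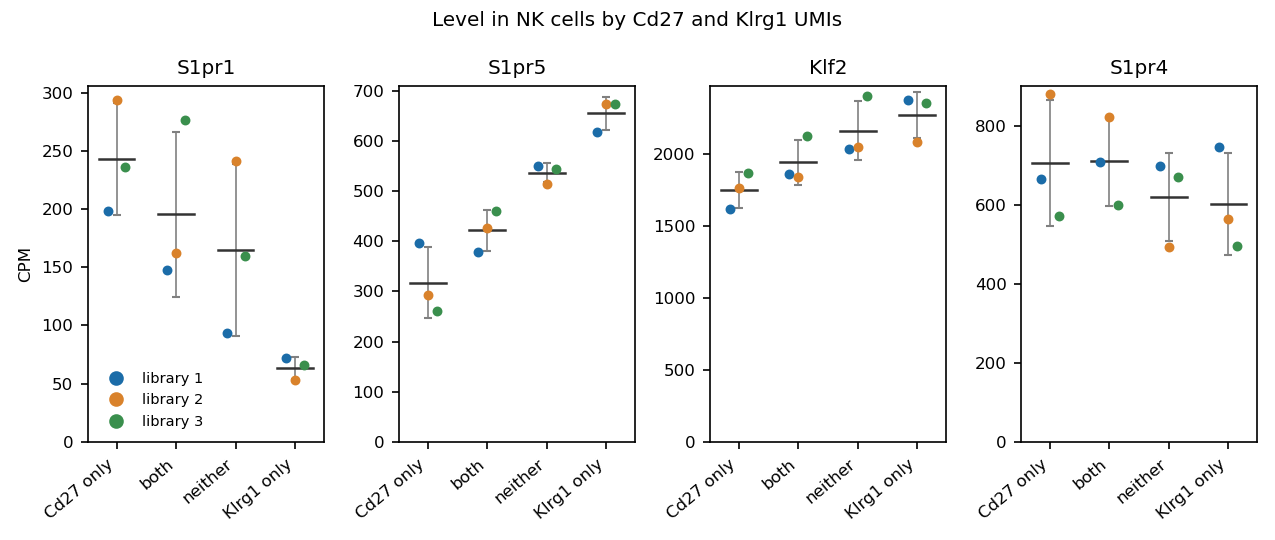
CPM of S1pr1, S1pr5, Klf2 and S1pr4 in NK cells grouped by UMIs of Cd27 and Klrg1, 1 point per library with the mean as a line and the SD as a bar. S1pr1 is highest with Cd27 only and lowest with Klrg1 only, and S1pr5 runs the other way.

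S1pr1 and S1pr5 ran in opposite directions across the maturation markers of NK cells. NK cells lose Cd27 and gain Klrg1 as they mature, and 126 cells with Cd27 alone were compared with 402 with Klrg1 alone. Cd27-positive cells numbered 95, 15 and 16 in replicates 1, 2 and 3, and Klrg1-positive cells 305, 70 and 27. S1pr1 was at 198, 294 and 236 CPM (243 ± 48.0) in Cd27-positive and 71.7, 53.3 and 66.2 CPM (63.7 ± 9.41) in Klrg1-positive cells. S1pr5 was at 396.5, 294 and 261 CPM (317 ± 70.8) and 617, 674 and 673 CPM (655 ± 32.7), and Klf2 at 1612, 1762 and 1862 CPM and 2369, 2080 and 2351 CPM. None of the 3 genes overlapped between the subsets. In edgeR S1pr1 was lower in Klrg1-positive cells by −1.61 (SE 0.23, adjusted p = 6.79e-08), S1pr5 higher by 0.93 (SE 0.16, adjusted p = 5.85e-06) and Klf2 higher by 0.51 (SE 0.11, adjusted p = 0.00132). The Klf2 call was lost without replicate 1 (0.45, adjusted p = 0.231), without the block (0.47, adjusted p = 0.0547) and in a fit of the 2 subsets alone (0.44, adjusted p = 0.0858). S1pr4 (706 ± 159 and 602 ± 129 CPM, 0.04, adjusted p = 0.964) and Cd69 (0.18, adjusted p = 0.942) were not called. So 3 of 5 genes were called, where 2.32% of all genes were, 1.23% higher and 1.08% lower. With plain library totals the share of called genes that were higher was 35.1% and with DESeq2 32.9%, against 53.2%.

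The 76 NK cells with both markers and the 251 with neither had mean S1pr5 levels between those of the 2 subsets, at 379.5, 426.5 and 461 CPM (422 ± 40.9) and at 550.5, 515 and 544 CPM (536 ± 19.0). S1pr1 was at 195 ± 70.8 and 165 ± 73.9 CPM and Klf2 at 1938 ± 158 and 2159 ± 207 CPM in these cells. S1pr1 UMIs were seen in 50.7% ± 9.0 of Cd27-positive and 16.7% ± 1.7 of Klrg1-positive cells, and S1pr5 UMIs in 51.1% ± 12 and 89.3% ± 6.2. Among the regulators, Zeb2 was at 425 ± 164 CPM in Cd27-positive and 1079 ± 29.0 in Klrg1-positive cells (1.27, edgeR adjusted p = 9.17e-15), Cxcr4 at 290 ± 162 and 53.7 ± 17.9 CPM, and Eomes, a T-box factor of NK development, at 837 ± 36.9 and 476 ± 74.7 CPM. In all 2 of the 18 regulators and trafficking genes were higher and 3 lower (median 0.07, all genes 0.02). None of 15 signalling and 8 S1P metabolism genes was called by edgeR or DESeq2, with 4 and 1 at an unadjusted p under 0.05.

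Among B cells, 355 transitional-type cells, recent emigrants from bone marrow, and 167 B-1-like and marginal-zone-like cells were compared with 3743 follicular-type cells. Cd69 was at 134, 141 and 157 CPM in transitional-type and 215, 171.5 and 179 CPM in follicular-type cells (−0.41, SE 0.12, edgeR adjusted p = 0.0144). This was the 1 call of 5, where 7.68% of all genes were called, 4.32% higher and 3.37% lower, and it was lost without replicate 1 (−0.23, adjusted p = 0.523), without the block (adjusted p = 0.0878) and with DESeq2 (adjusted p = 0.202). S1pr5, counted among the 5, had 7 UMIs in all B cells and could hardly be called. S1pr1 was at 464, 453 and 481 CPM in transitional-type and 498, 523 and 520 CPM in follicular-type cells and was not called (−0.13, adjusted p = 0.518). Klf2 (2704 ± 194 and 2539 ± 398 CPM) and S1pr4 (775 ± 168 and 872 ± 95 CPM) overlapped. In the lists, Zeb2 was higher in transitional-type cells (294 ± 25.9 against 98.7 ± 17.5 CPM, 1.57), Rgs2 was higher (96.2 ± 20.2 against 26.8 ± 1.91 CPM, 1.78) and Klf6 lower (174 ± 7.43 against 261 ± 25.9 CPM, −0.61).

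In B-1-like and marginal-zone-like cells Klf2 was at 3361, 2840 and 3083 CPM, against 2485, 2170 and 2961 CPM in follicular-type cells (0.31, SE 0.09, edgeR adjusted p = 0.00864), and S1pr1 at 625, 678 and 557 CPM against 498, 523 and 520 CPM (0.28, SE 0.10, adjusted p = 0.0412). These 2 calls stand beside 17.8% of all genes called, 10.1% higher and 7.65% lower. Klf2 was lost without replicate 1 (0.22, adjusted p = 0.237), without replicate 2 (0.26, adjusted p = 0.169), without the filter (adjusted p = 0.092) and without the block (adjusted p = 0.119). S1pr1 was lost when any 1 library was left out (adjusted p = 0.0531 to 0.301), without the filter (adjusted p = 0.238), without the block (adjusted p = 0.105) and with a gate of 5 marker UMIs (adjusted p = 0.0527). S1pr4 (839 ± 72.4 CPM) and Cd69 (162 ± 26.5 CPM) were not called. Klf6, a relative of Klf2, was higher (472 ± 28.3 against 261 ± 25.9 CPM, 0.84) and Spns2 lower (43.8 ± 23.4 against 123 ± 10.0 CPM, −1.56).

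Cells with a Cd69 UMI were then compared with cells of the same class, library and UMI depth without one. This pairs the RNA of the S1PR1 antagonist with that of the receptor and its activator within a class. Cd69 itself was left out of the fit. Klf2 was higher in Cd69-positive cells of 3 classes. In CD4 T cells it was at 3565, 3515 and 4117 CPM in positive and 3040, 3083 and 3319 CPM in negative cells, with no overlap. In CD8 T cells it was at 2737, 2879 and 3583 against 2422, 2466 and 3104 CPM, and in B cells at 2695, 2361 and 3206 against 2425, 2144 and 2807 CPM, higher within each library. The edgeR differences were 0.26 in CD4 T (SE 0.05, adjusted p = 6.56e-06), 0.21 in CD8 T (SE 0.04, adjusted p = 0.000157) and 0.17 in B cells (SE 0.04, adjusted p = 0.00115). In NK cells, with 70, 10 and 11 positive cells per library, Klf2 was not called (−0.11, adjusted p = 0.932). Without the library block all 3 calls were lost (adjusted p = 0.959 to 1), and without replicate 3 that in B cells (0.16, adjusted p = 0.0760).

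S1pr1 RNA was not called in any of the 4 classes. It was at 694, 724 and 790 CPM in Cd69-positive and 747, 847 and 882 CPM in Cd69-negative CD8 T cells (−0.13, SE 0.04, edgeR adjusted p = 0.124, lower in 3 of 3 libraries). Within naive-type CD8 T cells alone, an alternative added after seeing the data, the difference was −0.00079 (adjusted p = 1). In CD4 T cells it was at 843, 925 and 957 against 898, 1045 and 1107 CPM (−0.11, adjusted p = 0.455), in B cells the difference was 0.05 (adjusted p = 0.746) and in NK cells 0.45 (adjusted p = 0.898). S1pr4 differences lay between −0.09 and 0.05. Klf2 was thus the 1 called gene of 4 tested in B cells, where 2.56% of all 9134 genes were called (1.40% higher, 1.16% lower), in CD4 T cells, where 1.02% were (0.777% higher, 0.241% lower), and in CD8 T cells, where 1.15% were (0.985% higher, 0.164% lower). S1pr5, 1 of these 4, had 7 UMIs in all B cells and 7 in all CD4 T cells, so it could hardly be called there. In NK cells none of the 4 was called by edgeR or reached an unadjusted p under 0.05 in it, and DESeq2, which gave S1pr5 no adjusted p, called none, where 0.109% of all genes were called, 0.0547% in each direction. None of the 4 genes passed in a test of the difference between classes, the lowest adjusted p being 0.0966 for Klf2 in NK minus CD4 T cells (−0.37).

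**Figure D5:**
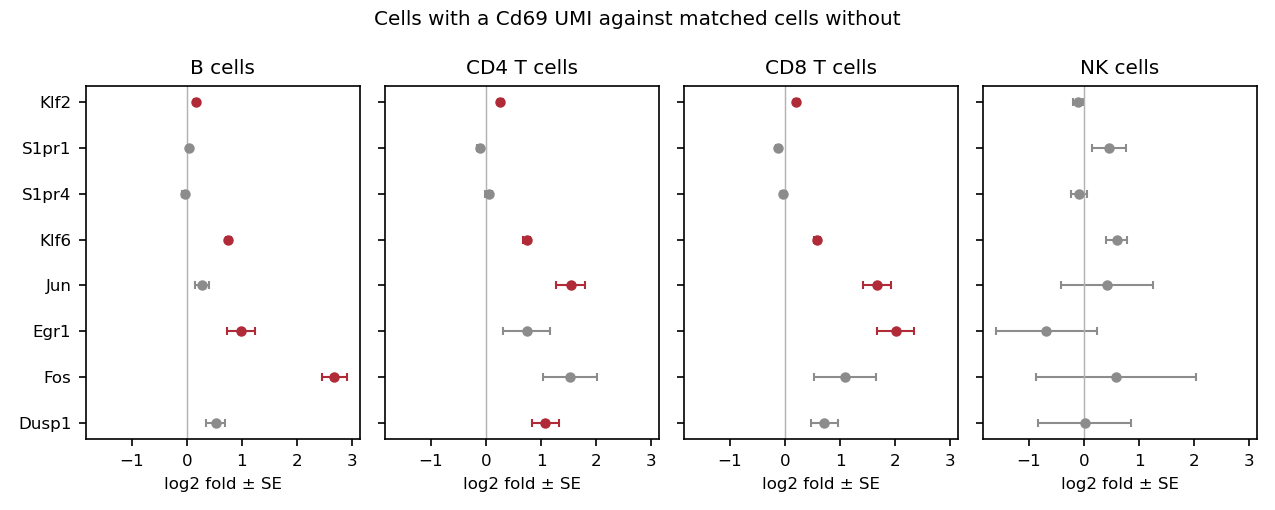
Log2 difference between Cd69-positive and depth-matched Cd69-negative cells in B, CD4 T, CD8 T and NK cells for Klf2, S1pr1, S1pr4 and 5 further genes, with SE bars from edgeR and called genes in red. Klf2 and Klf6 are above 0 and called in B, CD4 T and CD8 T cells, and S1pr1 and S1pr4 are called in none.

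Some early-response genes were higher in the same Cd69-positive cells. Of 17 activation genes edgeR called 5 higher in B cells, 4 in CD4 T and 5 in CD8 T cells, and DESeq2 called 3, 1 and 2. In B cells Fos was at 29.0 ± 9.90 against 4.51 ± 2.25 CPM (2.68, edgeR adjusted p = 7.12e-28). Jun was at 51.7 ± 12.9 against 15.4 ± 5.67 CPM in CD4 T cells (1.54, adjusted p = 1.61e-06) and at 33.6 ± 8.58 against 8.70 ± 0.659 CPM in CD8 T cells (1.67, adjusted p = 8.98e-08). Egr1 was at 37.2 ± 23.8 against 6.0 ± 0.777 CPM in CD8 T cells. Klf6 was higher in B (375 ± 16.0 against 225 ± 16.2 CPM), CD4 T (705 ± 31.6 against 416 ± 29.3 CPM) and CD8 T cells (512 ± 68.9 against 343 ± 53.4 CPM), and Ccr7 by 0.70, 0.66 and 0.60. In NK cells edgeR called 2 of the 17 lower, Egr3 (0 UMIs in positive and 15 in negative cells, adjusted p = 0.0309) and Nr4a1 (3 against 26 UMIs, adjusted p = 0.0498). All of these UMIs lay in replicate 1, and DESeq2 called 0 of the 17. Of the regulator and trafficking list 5 of 18 were higher and 1 lower in B, 4 higher in CD4 T and in CD8 T cells and 1 in NK cells. In these 4 comparisons no gene among 15 signalling and 8 S1P metabolism genes was called by edgeR. At an unadjusted p under 0.05 there were 3 signalling genes in B cells, 1 gene of each list in CD8 T cells, 1 signalling gene in NK cells and none in CD4 T cells, and DESeq2 called 1 signalling gene in B cells.

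UMIs of the other S1P receptors were few, and the part of probe efficiency in this was not tested. S1pr2 was highest in Ly6c-high-type monocytes (48.0 ± 3.59 CPM) and NK cells (37.1 ± 11.8), and S1pr3 gave 62 UMIs in B cells and at most 1 in any other class. The S1P exporter Mfsd2b, which is known from erythrocytes and platelets, was at 2502 ± 145 CPM in platelets (918 UMIs), 11.9 ± 20.6 in erythroid barcodes and below 4 CPM in all other classes. Sphk1, a kinase that makes S1P, had 1 UMI or none in each class.

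Over 18 classes and subsets with at least 10 cells in each library, the genes whose pattern of log2(mean CPM + 1) was most like each of the 5 were named among 9795 genes by Pearson's r, a description in which subsets share cells and libraries with their classes. They were Hook1, Carmil2 and Patj for S1pr1 (r of 0.98 each), Chd2, Zfp292 and Mapk8ip3 for S1pr4 (0.98 each) and Pdgfb, Fam78b and Cmklr1 for S1pr5 (0.97, 0.96 and 0.95). For Klf2 they were Casc3, Miip and Arpp19 (r from 0.994 to 0.996) and for Cd69 Ppcdc, Rhoh and Crbn (0.98, 0.97 and 0.97). Among the 5 genes themselves S1pr1 ran with Cd69 (r = 0.91) and S1pr4 (0.84) more than with Klf2 (0.54), S1pr4 ran with Cd69 (0.92) and Klf2 (0.87), and S1pr5 was near 0 or negative against all 4 (−0.40 to 0.07). Platelets were 1 of the 18 and had Klf2 at 19.8 CPM, S1pr4 at 2.68 CPM and no Cd69 UMI. The next lowest Klf2 level among the 18 was 1350 CPM, in Ly6c-high-type monocytes. How far platelets set these r values was not tested.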

How the data were processed

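Each of the 3 libraries was deposited as a matrix of raw, unnormalised UMI counts, which the authors made with Cell Ranger 7.1.0 per the file headers. Neither a genome build nor a probe set was given in the sources used here. The other deposited files give gene and barcode names. The 5 genes and the gene lists were chosen with earlier results of these data known.

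Barcodes under 200 genes (1182) and Scrublet doublets (921, scanpy 1.11.5) were removed. Each class needed at least 3 UMIs over 2 or more of its own markers and at most 1 UMI, or 10% of its own UMIs, of every other marker list. Subset thresholds were set after marker counts, but not the 5 genes, were seen, and the basophil gate ignored Hdc. Raw counts were summed per class and library and tested with edgeR 4.0.16 (quasi-likelihood, filterByExpr, TMM, library as a block) in R 4.3.3 over all genes. The library is the block because the classes compared share it. Classes needed 20 cells per library and subsets 10, lowered from a planned 20. Memory-type CD4 T, Foxp3-positive and Cd27-positive NK cells had as few as 12, 13 and 15 cells in a library. Their comparisons were run only under the lowered minimum. Cd69-positive cells were matched to Cd69-negative cells on UMI depth within class and library. Levels are CPM on plain library totals, while fold changes use TMM factors, so the 2 can differ. Shares of cells are at full depth, and some of those for S1pr1, S1pr5 and Cd69 are also given after thinning to 2000 UMIs. The shares of S1pr4, of Klf2 and of NK subsets are at full depth only, so depth was not evened out there. Exact 95% intervals and the floor of 3 counts cover counting error only.

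Genes named from a list were taken from the 2 largest called changes in each direction with at least 10 CPM in a group and the same direction in 3 of 3 libraries. Not all of these are named. Ccr7 in B cells, Egr3 and Nr4a1 in NK cells, and Mfsd2b, S1pr3 and Sphk1 fell outside that rule and were named after their values were seen. A gene of the regulator and trafficking list is counted there but not reported here by name. The edgeR test was tried on simulated counts for NK against CD8 T, memory-type against naive-type CD8 T and Cd69-positive against Cd69-negative B cells only. Alternatives included DESeq2 1.42.0, plain totals, no filter, no block and each library left out.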

Additional observations from a re-analysis of the deposited data

Results flagged for a closer look

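The difference between memory-type and naive-type cells was not the same in CD8 and CD4 T cells for 2 genes, by a test of the difference itself in edgeR. Memory-type CD8 T cells needed at least 3 UMIs of Ccl5 and Cxcr3. Memory-type CD4 T cells needed at least 4 UMIs of Cxcr3, S100a4, Itgb1, Maf and Cxcr6. The gates thus differed between the lineages, and gate and lineage cannot be told apart here. For Cd69 the memory minus naive difference was 0.38 in CD8 and −0.32 in CD4 T cells, a log2 difference of 0.70 between them (SE 0.22, adjusted p = 0.0319). It was lost without the library block (0.66, adjusted p = 0.120), without replicate 1 (0.80, adjusted p = 0.477) and without replicate 3 (0.67, adjusted p = 0.0708). For S1pr4 the differences were −0.20 in CD8 and 0.35 in CD4 T cells, a log2 difference of −0.55 (SE 0.14, adjusted p = 0.00556). It was lost without the block (−0.53, adjusted p = 0.0904) and without replicate 1 (−0.40, adjusted p = 0.453). The corresponding differences of S1pr1 (−0.06, adjusted p = 0.894) and Klf2 (0.18, adjusted p = 0.536) were not called, and memory-type CD4 T cells were 117 cells in all.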

How the results depend on the processing

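Of 60 log2 differences of the 5 genes, 31 were called and 16 stayed called under every alternative run. Differences of S1pr5 within CD4 T cells and within B cells rested on very few UMIs and were left out of these 60. Of 676 alternative values, 618 kept direction and call, 37 lost the call, 5 gained it and 16 changed sign, the last all for differences that were not called. Log2 differences follow.
With doublets kept, S1pr1 in Ly6c-low-type against Ly6c-high-type monocytes was −0.000871. With plain library totals, T against B cells gave S1pr4 0.20, Klf2 0.26 and Cd69 −0.0891, monocytes against neutrophils S1pr1 −0.38, and Klrg1-positive against Cd27-positive NK cells S1pr4 −0.0296.
Without the replicate block, Klf2 was −0.34 in NK against CD8 T, −0.30 in memory-type CD8 T, 0.47 in Klrg1-positive NK and 0.30 in B-1-like and marginal-zone-like B cells, S1pr4 was 0.33 in memory-type CD4 T and −0.0603 in Klrg1-positive NK cells, Cd69 was −0.39 in transitional-type B cells and S1pr1 was 0.28 in B-1-like and marginal-zone-like cells. In Cd69-positive cells Klf2 was 0.17 (B), 0.26 (CD4 T) and 0.21 (CD8 T), and 30, 16, 20 and 0 genes were called in B, CD4 T, CD8 T and NK cells, against 234, 93, 105 and 10 with the block. The block changed no other call of the 5 genes.
In fits of the groups compared only, Klf2 was 0.14 in T against B cells, 0.0023 in Foxp3-positive and 0.44 in Klrg1-positive NK cells, S1pr4 was −0.19 in memory-type CD8 T, 0.37 in memory-type CD4 T and −0.0785 in Klrg1-positive NK cells, and 768 (memory-type CD4 T), 296 (Foxp3-positive), 55 (Cd69-positive CD4 T) and 2 genes (Cd69-positive NK) were called, against 1282, 525, 93 and 10.
With DESeq2, Cd69 was −0.19 in T against B, 0.35 in memory-type CD8 T and −0.38 in transitional-type B cells, S1pr4 was −0.0118 in Klrg1-positive NK cells, and 962 genes (memory-type CD8 T, against 1497) and 90, 46 and 43 (Cd69-positive B, CD4 T and CD8 T) were called.
A gate of 5 UMIs gave S1pr1 0.27 in B-1-like and marginal-zone-like cells. Subsets of at least 20 cells per library, the planned minimum, gave S1pr4 −0.19 in memory-type CD8 T cells. No filter gave S1pr4 0.31 in memory-type CD4 T, and S1pr1 0.21 and Klf2 0.24 in B-1-like and marginal-zone-like cells. An alternative within follicular-type B and naive-type T cells only was added after seeing the data. In it Cd69-positive B cells gave S1pr1 −0.026 and CD8 T cells S1pr4 0.0042. There 65, 46 and 45 genes were called in B, CD4 T and CD8 T cells.
Leaving out 1 library in turn, the ranges were as follows, with lower counts of genes called in part from fewer libraries. T against B: Cd69 −0.31 to −0.14, S1pr5 2.55 to 3.07. NK against CD8 T: Klf2 −0.41 to −0.24, 3066 to 4822 genes. Ly6c-low-type against Ly6c-high-type: S1pr1 −0.0500 to 0.704, 2028 to 3382 genes. Memory-type CD8 T: Cd69 0.26 to 0.45, Klf2 −0.32 to −0.27, S1pr1 −0.37 to −0.32, 572 to 1319 genes. Memory-type CD4 T: S1pr4 0.20 to 0.40, 487 to 1124 genes. Foxp3-positive: Klf2 −0.0900 to 0.0682, 121 to 536 genes. Klrg1-positive NK: Cd69 −0.0622 to 1.26, Klf2 0.45 to 0.54, S1pr4 −0.20 to 0.17, 75 to 144 genes. Transitional-type: Cd69 −0.55 to −0.23, 334 to 518 genes. B-1-like and marginal-zone-like: Klf2 0.22 to 0.40, S1pr1 0.23 to 0.34, 915 to 1292 genes. Cd69-positive: in B Klf2 0.16 to 0.18, S1pr4 −0.0725 to 0.00817 and 134 to 180 genes, in CD4 T 29 to 80 genes, in CD8 T S1pr4 −0.0616 to 0.00529 and 41 to 94 genes, in NK Klf2 −0.55 to 0.0033, S1pr1 −0.27 to 0.68 and 1 to 8 genes. The causes of these changes were not tested. Few Cd69-positive NK cells (10 or 11 in 2 libraries) limited that comparison, and few UMIs limited S1pr5 outside NK cells and Ly6c-low-type monocytes.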
